A study of Mus musculus with 21 samples.

Results

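The genes described here encode the subunits of the proteasome, together with chaperones that build it. They were taken as every row of the deposited expression table whose symbol is Psma, Psmb, Psmc or Psmd followed by a number, leaving out the immunoproteasome genes Psmb8, Psmb9 and Psmb10. That gave 36 of the 20900 genes in the table, and all 36 were among the 14666 genes that passed the filter on low values. By structural role they are 8 genes of the α ring, 8 of the β ring, 6 ATPases of the regulatory particle, 3 other base subunits, 8 lid subunits and 3 assembly chaperones.

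The proteasome degrades proteins that carry ubiquitin chains. Its core is a barrel of stacked rings in which the β subunits hold the proteolytic sites and the α subunits form the gate. A regulatory particle caps the barrel, where the lid removes ubiquitin and the ATPase ring unfolds the substrate and feeds it in. Subunits are made in matched amounts in many cell types, in part through the transcription factor NFE2L1, also called NRF1 (not nuclear respiratory factor), and embryonic stem cells are known for high proteasome activity.

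The study followed RNA in mouse embryonic stem cells while RNA polymerase I, which makes most ribosomal RNA, was inhibited. The cells were E14, a line of the 129 strain without any genetic change named in the labels, grown with serum and LIF. They received 1 µM BMH-21, a DNA intercalator, or 1 µM CX-5461, a small molecule also used against polymerase I, for 2, 4 or 8 h, and the control was the 0 h time point. Each of the 7 groups had 3 libraries, 21 in all, with no vehicle or time-matched control, so the inhibitor cannot be told apart from the hours in culture, and both inhibitors share the same 3 controls. The labels do not say that replicates were separate cultures, so p-values measure the spread between these libraries only.

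Poly(A) libraries held between 46604397 and 62812641 reads. The embryonic stem cell markers (8 genes) summed to 5690 to 5740 CPM, the reads scaled to one common library size, in control and to 3480 to 3950 after 8 h of BMH-21. Over the same comparison 3 trophoblast markers (2 tested) went from 2.64–3.1 to 59.6–74.1 in the same unit, the 8 fibroblast markers (4 tested) from 30.4–32 to 55.3–60.8, and 3 neural markers from 149–181 to 122–130. The 3 leukocyte markers went from 41–43.3 to 85.7–89.6 and the 3 mesoderm markers from 4.69–5.75 to 7.17–8.1. The 5 endoderm markers (4 tested) went from 8.26–9.15 to 10.5–11.2. After 8 h of CX-5461 the sums were 5140 to 5190 for stem cell, 22.4 to 23.3 for trophoblast, 44.3 to 47 for fibroblast, 201 to 204 for neural, 77 to 79.3 for leukocyte and 9.11 to 11.2 for mesoderm markers. The endoderm sum was 11 to 11.3 in the 8 h CX-5461 libraries. In the 8 h BMH-21 libraries Krt7, a trophoblast marker, had 2805 to 4413 reads against 85 to 103 in control, and Col1a1, a fibroblast marker, 1853 to 2551 against 370 to 436. The fibroblast marker Thy1 had 534 to 659 against 1011 to 1093. The neural markers parted as well: Neurod1 had 1832 to 2317 reads against 278 to 363, and Pax6 55 to 99 against 386 to 492. Tubb3, which held most of the neural reads, had 4246 to 5734 against 7319 to 8367. Of the mesoderm markers, Mesp1 had 184 to 262 reads against 11 to 20 in control, and Eomes 118 to 188 against 198 to 232. Of the endoderm markers, Gata6 had 212 to 264 against 86 to 112, and Sox7 102 to 113 against 127 to 143. No marker was at 0 in every library, and the part of these markers in the results was not tested. In RNA from whole cultures, fewer cells of a type and less RNA per cell cannot be told apart.

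Values are given as relative log2 values: the deposited log2 value after each library was shifted so that its median gene matches the other libraries. A change is a difference of group means on this scale with its standard error (SE) from limma, and it was called at an adjusted p under 0.05 over all 14666 genes. The shift matters because the deposited scale itself moved. Relative to control the median gene stood at -0.09, -0.2 and -0.39 on the deposited log2 scale after 2, 4 and 8 h of BMH-21, and at -0.19, -0.26 and 0.1 after CX-5461. Results that turn with the scale are named as such beside the value. Differences between 2 genes of the same library do not depend on a shift of the whole library.

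Proteasome subunit genes were abundant in untreated cells. Per kilobase of exon, 31 of the 36 lay at or above the 90.2 percentile of tested genes in control. Psmc5, which encodes an ATPase subunit, was the highest, at a log2 level per kilobase of 8.29 ± 0.03 (SD, n = 3). Psmb6, a catalytic β subunit, came next at 7.7 ± 0.05, and each of these 2 stood above the gene below it in all 3 control libraries. Several neighbours further down could not be ordered: Psmd2, Psmd12, Psmc1 and Psmc4 lay between 7.2 and 7.21. The 5 lowest were the assembly chaperones Psmd10 (4.34), Psmd5 (3.88) and Psmd9 (2.56), the testis form Psma8 (2.17) and the thymus form Psmb11 (-0.42), whose level was at the 21.1 percentile.

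After 8 h of BMH-21, 28 of the 36 genes were lower than in control and 3 were higher by limma's test, where 41.8% of all genes tested were lower and 40.7% higher. The median change over the 36 was -0.36 on the relative log2 scale, and single genes ranged from -0.81 to 0.4. After 8 h of CX-5461, 30 were lower and 0 higher, with 33.9% of all genes lower and 36.3% higher, a median of -0.29 and a range from -0.56 to 0.03. By an unadjusted p under 0.05 the same 30 passed under CX-5461 and 0 were higher.

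Abundant genes in general were lower more than higher at this time. Among the 5885 tested genes with a mean log2 value above 5, 55.9% were lower in the 8 h BMH-21 libraries and 54.7% after 8 h of CX-5461. When the libraries were aligned on those abundant genes alone, the split of higher and lower members was 6 and 21 under BMH-21 and 1 and 21 under CX-5461, with medians of -0.18 and -0.14. Under that alignment 50.6% of all genes were higher and 31.5% lower in the BMH-21 comparison, and 49.3% and 19.9% in that of CX-5461. On the deposited scale the members split 0 and 34 under BMH-21, where 56.9% of all genes were lower, and 0 and 15 under CX-5461, where 14.3% were.

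The summed share of all reads held by the 36 genes does not use the shift. It is a part of each library's total, so it also depends on the reads of all other genes. It was 0.86%, 0.856% and 0.824% in the 3 control libraries, 0.703%, 0.781% and 0.699% after 8 h of BMH-21, and 0.785%, 0.773% and 0.772% after 8 h of CX-5461. Both 8 h groups lay below every control library. At 4 h the means were 0.869% ± 0.019 with BMH-21 and 0.825% ± 0.013 with CX-5461 (SD, n = 3), and at 2 h 0.851% ± 0.024 and 0.85% ± 0.02, and all 4 of these groups overlapped the control libraries. The second replicate of 8 h BMH-21 stood apart from the others of its group, with a median of the 36 relative log2 values of 7.64 against 7.42 and 7.41. Without that library 32 genes were lower and 3 higher in BMH-21 at 8 h, with a median of -0.43.

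**Figure D1:**
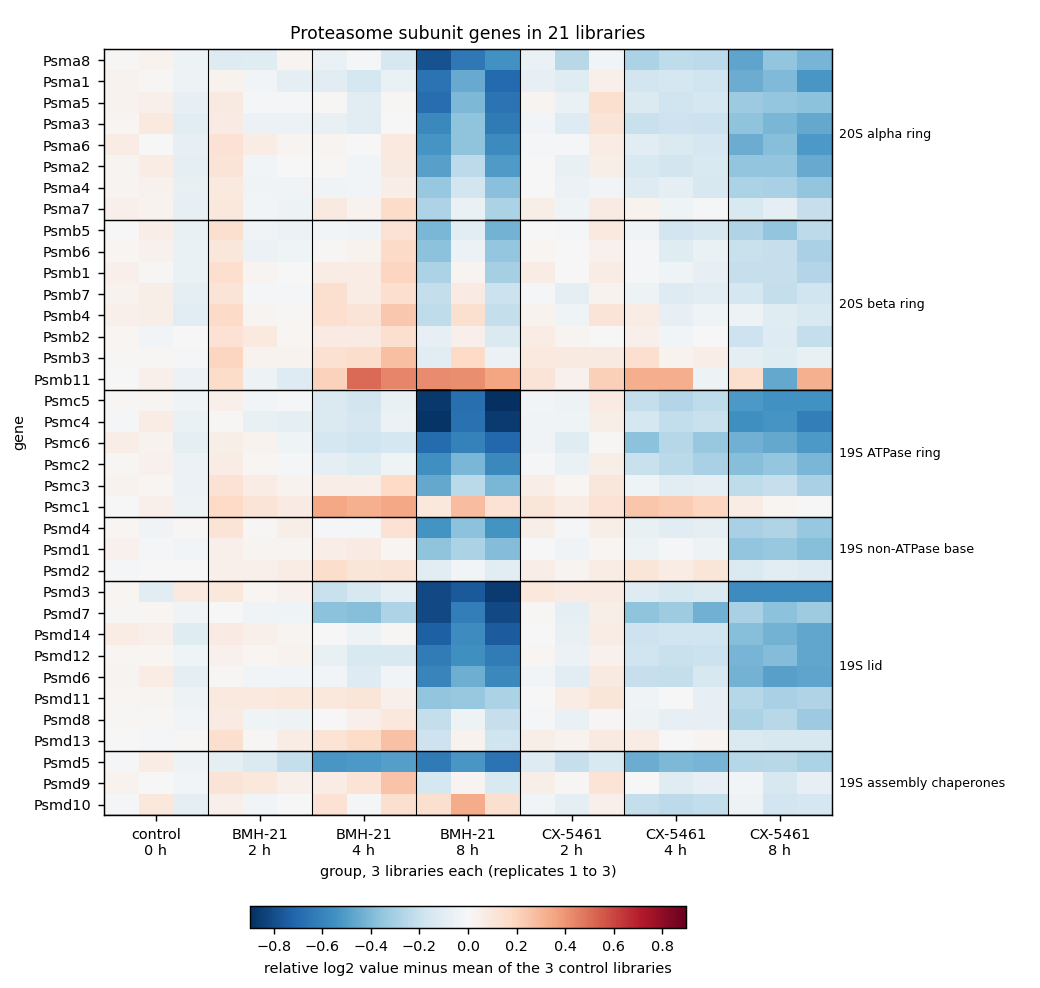
Each cell of the heat map is the relative log2 value of 1 gene in 1 library minus the mean of the 3 control libraries, with genes grouped by structural role and libraries by inhibitor and time. The 8 h columns are mostly blue, most of all for the α ring, the ATPases and the lid, while Psmc1 and Psmb11 are red under BMH-21 and Psmd5 is already blue at 4 h.

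The early time points were different. At 2 h of BMH-21, Psmc1 and the lid gene Psmd11 were higher and Psmd5 lower, 2 and 1 of 36, against 20.1% and 15.8% of all genes. As deposited 0 were called, and the 6 fits that left out 1 library gave 1 to 2. The call for Psmc1 was lost in 3 of those 6 fits. At 2 h of CX-5461 only Psmd5 was called, lower, against 12.6% of all genes lower, and 0 were higher against 19.1%. No member differed between the inhibitors at that time by limma, with 0 at an unadjusted p under 0.05 as well, against 5.78% of all genes higher and 9.2% lower in BMH-21.

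At 4 h the inhibitors gave different counts. BMH-21 gave 9 genes higher and 6 lower, against 35.4% and 37.4% of all genes, with a median of 0.04; on the deposited scale 0 were higher and 12 lower, against 44.9% of all genes lower. CX-5461 gave 2 higher and 18 lower, against 34.1% and 35.3%, with a median of -0.11; under quantile normalization the split was 5 and 6, against 27.8% of all genes higher and 44.6% lower. In the direct comparison at 4 h, 19 genes were higher in BMH-21 than in CX-5461 and 0 lower, against 18% and 23.9% of all genes, with a median difference of 0.13; at an unadjusted p under 0.05 the number was 27. That count was 1 on the deposited scale, where 9.35% of all genes were higher, and 9 without the second CX-5461 replicate, though 0 were lower in either.

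**Figure D2:**
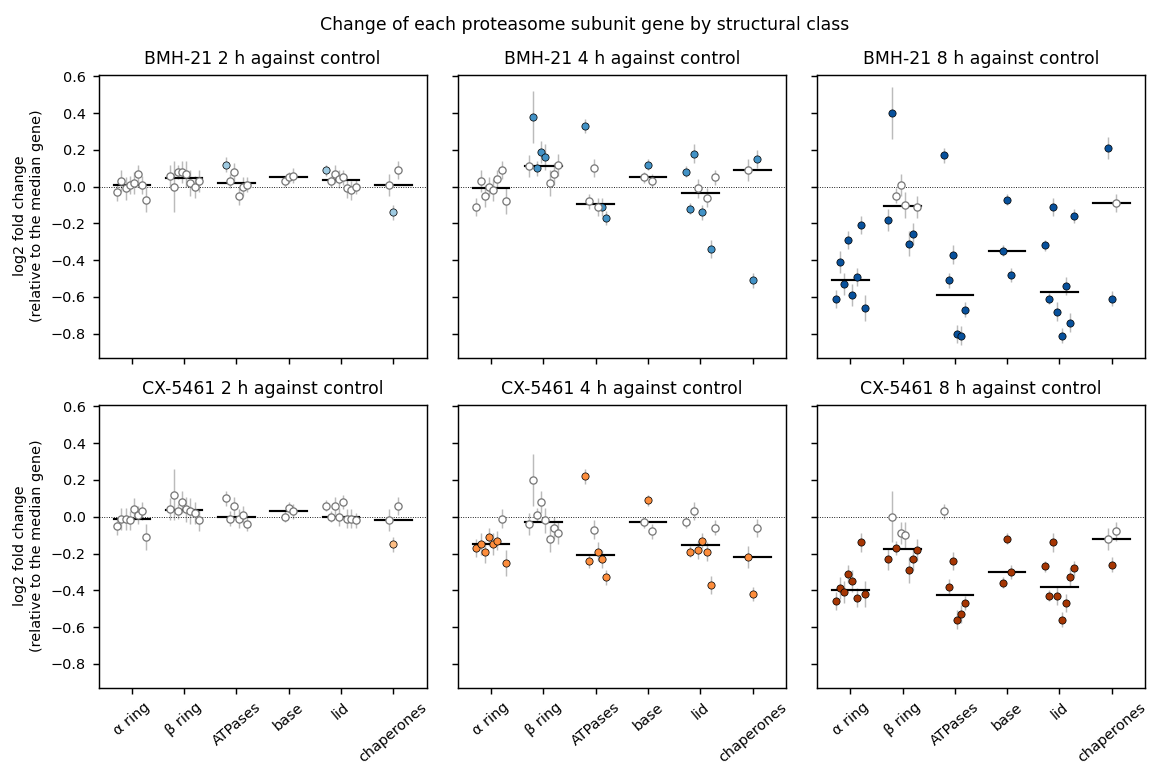
Each point is the log2 fold change of 1 gene against control, relative to the median gene, with its SE as a grey line; filled points passed limma's adjusted threshold, black bars are class medians and the 6 panels are the inhibitors and times. At 8 h of BMH-21 the α ring, ATPases and lid lie near -0.5 to -0.6 and the β ring near -0.1.

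In the core particle, all 8 α ring genes were lower after 8 h of BMH-21 (median -0.51) and all 8 after 8 h of CX-5461 (median -0.4), of which 6 were called as deposited. These class counts stand against 41.8% and 33.9% of all genes lower, and 55.9% and 54.7% of abundant ones. Of the 8 β ring genes, 3 were lower and 1 higher after BMH-21 (median -0.11) and 5 lower and 0 higher after CX-5461 (median -0.18). Without the second BMH-21 replicate 6 were lower and the β ring median was -0.21, and on the deposited scale 7 were lower under BMH-21 and 0 under CX-5461. Within a library, the median change of the β ring stood above that of all 36 genes by 0.21 to 0.32 in the 8 h BMH-21 libraries and by 0.11 to 0.13 in the 8 h CX-5461 libraries, while the control libraries spanned -0.01 to 0.01. The α ring stood between -0.14 and -0.1 in the 8 h BMH-21 libraries and between -0.11 and -0.04 in the 8 h CX-5461 libraries, against -0.02 to 0.01 in control.

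Psma7, which encodes an α subunit, changed least in that ring at 8 h of BMH-21. Libraries gave relative log2 values of 7.86, 7.85 and 7.74 in control, 7.54, 7.76 and 7.53 after 8 h of BMH-21, and 7.68, 7.73 and 7.61 after 8 h of CX-5461. The second BMH-21 replicate overlapped the control libraries and the CX-5461 ones did not. The changes were -0.21 (SE 0.05, adjusted p = 0.0013 by limma) and -0.14 (SE 0.05, adjusted p = 0.023), and the second turned to 0.01 when libraries were aligned on abundant genes and was lost in 3 of 6 fits that left out 1 library.

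Psma8, the α subunit known from the testis, fell furthest in the ring after 8 h of BMH-21, from few reads (351 to 617 per library). It had relative log2 values of 3.5, 3.52 and 3.44 in control against 2.7, 2.84 and 2.94 in the 8 h BMH-21 libraries and 3.01, 3.13 and 3.07 after 8 h of CX-5461. Both inhibitor groups lay below all controls. The changes were -0.66 (SE 0.07, adjusted p = 6e-09 by limma) and -0.42 (SE 0.07, adjusted p = 1.3e-05).

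Psmb5 encodes the chymotrypsin-like catalytic subunit, the target of bortezomib. The libraries held relative log2 values of 7.35, 7.4 and 7.28 in control, 6.93, 7.24 and 6.92 in the 8 h BMH-21 libraries and 7.07, 6.99 and 7.11 after 8 h of CX-5461. All 6 treated libraries lay below the controls, the second BMH-21 replicate by little. The changes were -0.31 (SE 0.07, adjusted p = 0.00025 by limma) and -0.29 (SE 0.07, adjusted p = 0.00085). The difference between the inhibitors at 8 h was -0.03 (95% interval -0.17 to 0.12) and was not called. It was -0.13 without the second BMH-21 replicate (adjusted p = 0.044 by limma) and -0.52 on the deposited scale (adjusted p = 5.6e-06 by limma).

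Psmb11, the catalytic β subunit of thymic epithelium, was the least abundant member, with 156 to 319 reads per library. Relative log2 values were 1.85, 1.89 and 1.79 in control and 2.27, 2.26 and 2.2 after 8 h of BMH-21, all above the controls, and 1.99, 1.38 and 2.16 after 8 h of CX-5461, on both sides of them. The change after BMH-21 was 0.4 (SE 0.14, adjusted p = 0.014 by limma), but 0.01 on the deposited scale and -0.16 under quantile normalization, and after CX-5461 it was 0 (SE 0.14).

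The 6 ATPases, which form the unfolding ring, held the widest spread of the classes at 8 h. After 8 h of BMH-21, 5 were lower (median of the 6 was -0.59) and Psmc1 was higher. After 8 h of CX-5461 the same 5, Psmc2 to Psmc6, were lower (median -0.43, with 4 of 6 as deposited), and Psmc1 was not called. Beside these counts, 41.8% of all genes were lower at 8 h of BMH-21 and 33.9% at 8 h of CX-5461 (14.3% as deposited). Among abundant genes the shares were 55.9% and 54.7%. The stretches of DNA just upstream of the extremes of the class are shown here, on build GRCm38.p6 from RefSeq, each 5′ to 3′ on the gene's strand and ending at the base before the gene's start in GENCODE. Psmc5 lies on chromosome 11 (chr11:106256080-106256153, plus strand), where the stretch shown is the whole interval to Ftsj3, a ribosome biogenesis gene on the other strand that starts 75 bases away. Psmc4 (chr7:28050102-28050221, minus strand) is shown as the ATPase next to it in size of change, picked after its values were seen, and Psmc1 (chr12:100110034-100110153, plus strand) as the one that rose. Capitals mark matches to the motifs searched, a GC box and an E2F element that overlaps a second GC box on the other strand in Psmc4. The stretches of Psmc5 and Psmc1 hold no whole match, and that of Psmc5 begins with the last bases of a GC box on the other strand.
Psmc5: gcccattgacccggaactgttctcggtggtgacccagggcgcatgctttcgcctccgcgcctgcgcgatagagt
Psmc4: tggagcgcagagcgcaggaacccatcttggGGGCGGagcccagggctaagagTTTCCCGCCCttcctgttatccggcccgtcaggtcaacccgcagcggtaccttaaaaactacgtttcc
Psmc1: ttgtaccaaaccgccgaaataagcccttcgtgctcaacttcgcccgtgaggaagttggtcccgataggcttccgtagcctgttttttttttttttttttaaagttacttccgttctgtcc

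Psmc5 was the most abundant member per kilobase in control and fell under both inhibitors. It stood at relative log2 values of 8.79, 8.8 and 8.74 in control, 8.65, 8.61 and 8.71 after 4 h of BMH-21 and 7.91, 8.1 and 7.88 after 8 h. After CX-5461 they were 8.56, 8.51 and 8.55 at 4 h and 8.26, 8.23 and 8.23 at 8 h. All 4 of these groups lay below the controls, and BMH-21 lay below CX-5461 at 8 h and above it at 4 h. At 8 h Psmc5 fell by 42.9% under BMH-21 (log2 change -0.81, SE 0.05, adjusted p = 6e-14 by limma) and fell by 30.9% under CX-5461 (-0.53, SE 0.05, adjusted p = 3.8e-10). Ftsj3, across the shared upstream stretch, changed by -0.76 and -0.47.

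Psmc1 went the other way. Its libraries read, as relative log2 values, 8.15, 8.2 and 8.11 in control, 8.5, 8.47 and 8.5 at 4 h of BMH-21 and 8.25, 8.43 and 8.28 at 8 h. Under CX-5461 they were 8.4, 8.38 and 8.35 at 4 h and 8.22, 8.17 and 8.16 at 8 h. The 4 h groups lay above the controls under both inhibitors, and at 8 h CX-5461 overlapped them. BMH-21 changed it by 0.33 at 4 h (SE 0.04, adjusted p = 1e-07 by limma) and at 8 h by 0.17 (SE 0.04, adjusted p = 0.00067), which was -0.22 on the deposited scale and -0.01 with each library centred on its own median. Psmc1 has 2 near-identical processed pseudogenes that are not in the table, so its reads could in part be theirs.

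Set against each other within each library, the difference between Psmc5 and Psmc1 narrowed and then turned in sign. Psmc5 exceeded Psmc1 by 0.62 ± 0.02 on the log2 scale in control (SD, n = 3), by 0.5 ± 0.03 and 0.52 ± 0.04 at 2 h of the inhibitors in that order, and by 0.17 ± 0.04 and 0.16 ± 0.03 at 4 h. After 8 h of CX-5461 the difference was 0.06 ± 0.01, and after 8 h of BMH-21 it was -0.36 ± 0.04. The log2 value of Psmc1 was then the larger, but these values are not divided by exon length. Per kilobase Psmc5 stood at 8.29 and Psmc1 at 7.2 in control. A change of -0.97 in the difference does not put Psmc1 above Psmc5 on that measure. None of the 6 treated groups overlapped the control libraries in this difference, and no shift of a whole library enters it. Quantile normalization is not such a shift and was not applied to this difference. Psmc4 minus Psmc1 moved likewise, from 0.15 ± 0.02 in control to -0.81 ± 0.02 in the 8 h BMH-21 libraries and -0.43 ± 0.04 after 8 h of CX-5461. These pairs were chosen after their values were seen.

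**Figure D3:**
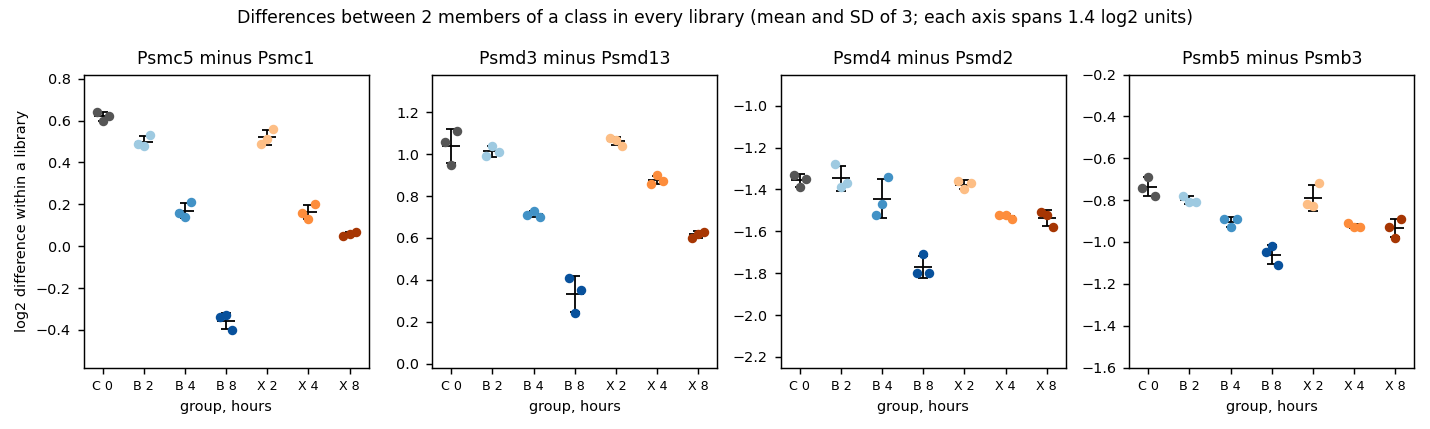
Each point is the log2 value of 1 gene minus that of another in the same library, for 4 pairs, with the mean and SD of 3 libraries; C, B and X stand for control, BMH-21 and CX-5461, followed by hours. The Psmc5 minus Psmc1 difference falls from 0.62 in control to -0.36 at 8 h of BMH-21, and the other 3 pairs are also lowest there. In each pair the first gene had the lowest change of its class at 8 h of BMH-21, so a drop there follows from the choice.

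The 3 other base subunits hold the ring and receive ubiquitin. All 3 were lower at 8 h of BMH-21 (median -0.35) and of CX-5461 (median -0.3, with 1 of 3 as deposited). The shares of all genes lower were 41.8% and 33.9%, the latter 14.3% as deposited, and those of abundant genes 55.9% and 54.7%. Psmd2, a scaffold subunit and the member with the highest relative log2 values, moved least: 9.21, 9.23 and 9.23 in control, 9.13, 9.2 and 9.13 in the 8 h BMH-21 libraries and 9.09, 9.12 and 9.11 after 8 h of CX-5461. Neither treated group overlapped control, yet the changes were small, -0.07 (SE 0.03, adjusted p = 0.036 by limma) and -0.12 (SE 0.03, adjusted p = 0.0013). They turned to 0.11 and 0.03 when libraries were aligned on abundant genes, so the direction for Psmd2 depends on the scaling. Its BMH-21 call was also lost in 4 of 6 fits that left out 1 library.

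Psmd4, a ubiquitin receptor, moved further than Psmd2. Its relative log2 values were 7.89, 7.84 and 7.88 in control, 7.33, 7.5 and 7.33 in the 8 h BMH-21 libraries and 7.58, 7.6 and 7.53 after 8 h of CX-5461, with all 6 treated libraries below the controls. The changes were -0.48 (SE 0.04, adjusted p = 6.5e-10 by limma) and -0.3 (SE 0.04, adjusted p = 2.6e-06). Psmd4 minus Psmd2 within a library went from -1.36 ± 0.03 to -1.77 ± 0.05 and -1.54 ± 0.04 (SD, n = 3), with no overlap. The pair holds the lowest and the highest change of its class at 8 h of BMH-21, so a drop there follows from the choice.

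The lid removes ubiquitin chains before a substrate is unfolded, and all 8 of its genes were lower at 8 h under both inhibitors (medians -0.57 and -0.38). As deposited, 8 of 8 were lower under BMH-21 and 4 of 8 under CX-5461. Of all genes 41.8% and 33.9% were lower, and 56.9% and 14.3% as deposited. Of abundant genes 55.9% and 54.7% were lower on the relative scale. Psmd3, a scaffold subunit of the lid, had relative log2 values of 8.75, 8.63 and 8.82 in control, 7.92, 7.98 and 7.87 in the 8 h BMH-21 libraries and 8.17, 8.17 and 8.17 after 8 h of CX-5461. No treated library came near the controls, and the BMH-21 libraries lay below the CX-5461 ones. Psmd3 fell by 43.0% after BMH-21 (log2 change -0.81, SE 0.04, adjusted p = 7.9e-15 by limma) and fell by 32.3% under CX-5461 (-0.56, SE 0.04, adjusted p = 2.4e-11).

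Psmd13, another lid subunit, moved less in the same libraries. Its relative log2 values were 7.7, 7.68 and 7.71 in control, 7.51, 7.73 and 7.52 in the 8 h BMH-21 libraries and 7.57, 7.55 and 7.55 after 8 h of CX-5461. The second BMH-21 replicate lay above the controls. The changes were -0.11 (SE 0.05, adjusted p = 0.041 by limma) and -0.14 (SE 0.05, adjusted p = 0.012), and they turned to 0.07 and 0.01 when libraries were aligned on abundant genes. The 8 h BMH-21 call for Psmd13 was lost in 5 of 6 fits that left out 1 library and held only without the second BMH-21 replicate, at -0.18. Psmd3 minus Psmd13 within a library went from 1.04 ± 0.08 in control to 0.34 ± 0.09 in the 8 h BMH-21 libraries and 0.61 ± 0.02 in the 8 h CX-5461 libraries (SD, n = 3), without overlap. Psmd3 and Psmd13 had the lowest and the highest change of the lid at 8 h of BMH-21, so a drop there follows from the choice. Psmd13 shares 10.1% of its exon bases with Sirt3 on the other strand, in a library kit that keeps strand.

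Psmd7, the inactive partner of the lid's deubiquitinase, is named here after its values were seen because it differed most between the inhibitors at 8 h. Its relative log2 values were 8.26, 8.27 and 8.22 in control, 7.88, 7.87 and 7.97 after 4 h and 7.44, 7.63 and 7.44 after 8 h of BMH-21. After CX-5461 they were 7.89, 7.93 and 7.82 at 4 h and 7.96, 7.88 and 7.93 at 8 h. Both inhibitors took the gene to the same range by 4 h, and at 8 h only the BMH-21 libraries lay lower still. The level course after CX-5461 belongs to the relative scale. On the deposited scale the median gene of those groups moved from -0.26 at 4 h to 0.1 at 8 h, and Psmd7 rose. The difference between inhibitors at 8 h on the relative scale was -0.42 (SE 0.05, adjusted p = 3.4e-08 by limma). Psmd14, the deubiquitinase itself, changed by -0.68 (SE 0.05, adjusted p = 3.7e-12) in the 8 h BMH-21 libraries and by -0.43 (SE 0.05, adjusted p = 3.8e-08) after 8 h of CX-5461.

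The 3 assembly chaperones of the regulatory particle split. Psmd5, which binds Psmc2 during assembly and leaves before the particle is complete, was lower in all 6 comparisons with control. Its relative log2 values were 6.72, 6.8 and 6.69 in control, 6.65, 6.61 and 6.52 after 2 h, 6.21, 6.22 and 6.24 after 4 h and 6.1, 6.21 and 6.07 after 8 h of BMH-21. After CX-5461 they were 6.62, 6.53 and 6.6, then 6.29, 6.33 and 6.32, then 6.48, 6.49 and 6.45. No treated group overlapped the controls. The 4 h changes were -0.51 (SE 0.04, adjusted p = 8.8e-11 by limma) and -0.42 (SE 0.04, adjusted p = 3.1e-09), and the 8 h changes -0.61 and -0.26, a difference between inhibitors of -0.35 (SE 0.04, adjusted p = 9.9e-08). On the deposited scale the 8 h change of Psmd5 under CX-5461 was -0.16 and was not called (adjusted p = 0.2 by limma), nor was the 2 h change under BMH-21 (-0.24, adjusted p = 0.12). The 2 h calls for Psmd5 were also lost in 2 of 6 (BMH-21) and 1 of 6 (CX-5461) fits that left out 1 library.

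Psmd10, also called gankyrin, a chaperone of Psmc4, had relative log2 values of 4.88, 4.99 and 4.81 in control, 5.04, 5.23 and 5.04 in the 8 h BMH-21 libraries and 4.85, 4.72 and 4.74 after 8 h of CX-5461. The BMH-21 libraries lay above the controls and the CX-5461 ones overlapped them. The BMH-21 change was 0.21 (SE 0.06, adjusted p = 0.0025 by limma) but -0.18 on the deposited scale. Psmd9, the third chaperone, was called in neither 8 h comparison, at -0.09 and -0.08.

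**Figure D4:**
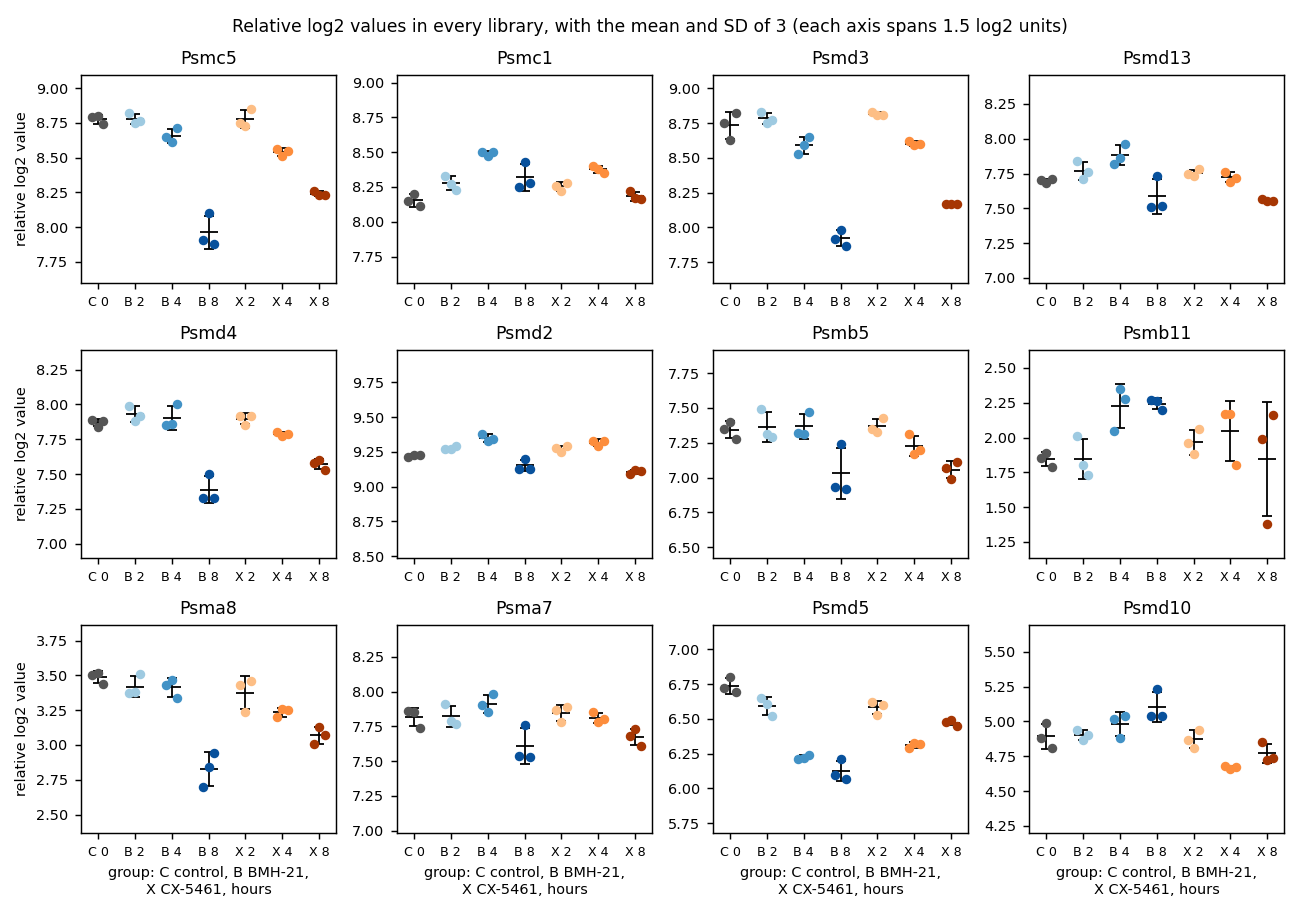
Each point is the relative log2 value of 1 gene in 1 library, with the mean and SD of 3, for the 12 genes whose values are given in every library by the naming rule; C, B and X stand for control, BMH-21 and CX-5461, followed by hours, and every axis spans 1.5 log2 units. Psmc5 and Psmd3 drop to about 7.9 at 8 h of BMH-21 while Psmc1 and Psmd13 stay near their control values.

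Most of the movement came between 4 h and 8 h. From 4 h to 8 h of BMH-21, 34 of 36 genes were lower and 0 higher, against 31.2% and 38% of all genes, with a median of -0.4; only Psmb11 and Psmd10 were not called. From 4 h to 8 h of CX-5461, 29 were lower and 1, Psmd5, was higher, against 30.7% and 26.7%, with a median of -0.19. The CX-5461 result belongs to the relative scale: on the deposited scale 8 genes were higher and 0 lower, against 58.8% of all genes higher, with a median of 0.17.

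The 4 h to 8 h change itself was compared between the inhibitors, a test that uses no control library. It was more negative under BMH-21 for 20 genes and less negative for 0 by limma, the same 20 at an unadjusted p under 0.05, against 26.5% and 31.2% of all genes, with a median difference of -0.2. Without the second 8 h BMH-21 replicate the count was 28 and the median -0.27. The 20 genes included 6 of 8 α ring genes, 5 of 6 ATPases, 6 of 8 lid genes, 1 of 3 base genes, 2 of 3 chaperones and 0 of 8 β ring genes. The β ring count rests on that library, since without it 5 of 8 were called, with 8 of 8 α ring and 7 of 8 lid genes. Across the 36 genes the 2 changes were related (Pearson r = 0.63, Spearman rho = 0.55), a description over genes that share their libraries.

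**Figure D5:**
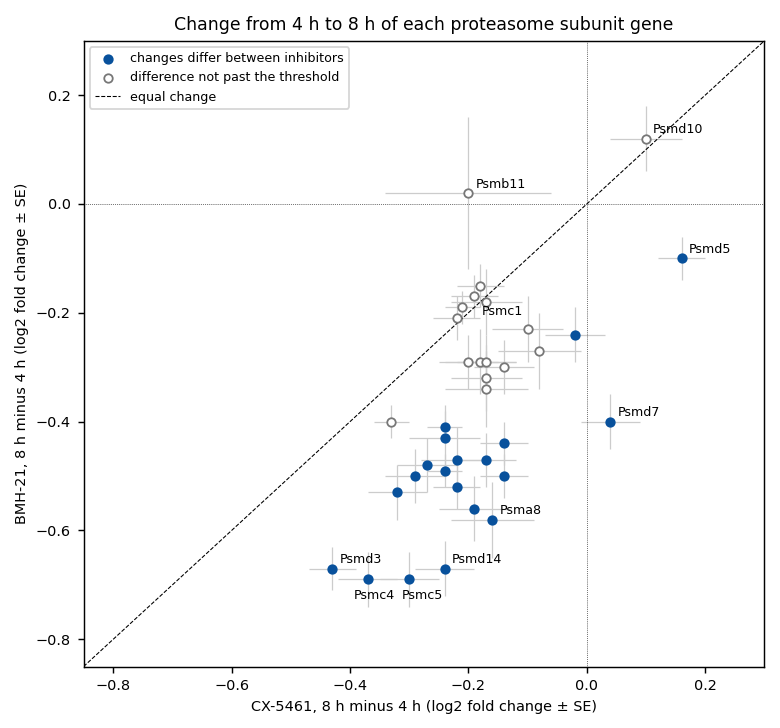
Each point is 1 gene, with its log2 fold change from 4 h to 8 h of CX-5461 on the horizontal axis and of BMH-21 on the vertical axis, both with SE; filled points differ between the inhibitors by limma's test. Of the 36 points 30 lie below the line of equal change, the lowest being Psmc4 and Psmc5 at -0.69 under BMH-21.

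At 8 h the inhibitors were compared directly as well. BMH-21 gave 14 genes lower and 5 higher than CX-5461, against 35.1% and 35.8% of all genes, with a median of -0.05. The lower ones included 5 of 6 ATPases (all but Psmc1), 4 of 8 lid genes and 3 of 8 α ring genes, and the higher ones Psmb2, Psmb11, Psmc1, Psmd8 and Psmd10. Psmc1 differed by 0.14 (SE 0.04, adjusted p = 0.0043 by limma) and Psmd10 by 0.33 (SE 0.06, adjusted p = 3.2e-05), and both turned on the deposited scale, to -0.35 and -0.16, where 34 genes and 67.2% of all genes were lower in BMH-21. Without the second BMH-21 replicate 20 were lower, 6 of them in the α ring, and 3 higher. Psmb2 and Psmd8 were then not called, and Psmc1 differed by 0.08 (adjusted p = 0.04 by limma). The difference of 0.4 for Psmb11 was 0.17 without the second CX-5461 replicate (adjusted p = 0.22 by limma).

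The other genes of the pathway were described by lists. Of 45 tested, 28 were lower and 13 higher after 8 h of BMH-21 (median -0.31) and 25 lower and 9 higher after 8 h of CX-5461 (median -0.19); as deposited the splits were 32 and 5, and 9 and 8. Over all genes 41.8% were lower and 40.7% higher under BMH-21, 33.9% and 36.3% under CX-5461, and 56.9% and 14.3% were lower as deposited. The proteins bound to the proteasome had 5 of 7 lower under each inhibitor, and as deposited 5 and 2. Among them the deubiquitinase gene Usp14 changed by -1.18 (SE 0.04, adjusted p = 1.8e-18 by limma) after BMH-21 and -0.48 (SE 0.04, adjusted p = 1.7e-10) after CX-5461, and the ubiquitin receptor Adrm1 by -0.59 and -0.36. Of the shuttle receptors, which carry ubiquitinated proteins to the proteasome, 6 of 7 were lower under each inhibitor (as deposited 6 and 3), with Rad23b at -0.85 and -0.67 and Ubqln2 at -1.51 and -0.22.

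Core assembly chaperones were mixed: Psmg2 was lower (-0.52 and -0.24), and Pomp, needed to close the β ring, was higher after BMH-21 (0.35, SE 0.05, adjusted p = 1.5e-06 by limma; -0.03 as deposited) and at 0.03 after CX-5461. Of the activators and the inhibitor, 3 of 5 were lower and 1 higher in the 8 h BMH-21 libraries and 2 lower and 1 higher after 8 h of CX-5461, with the nuclear activator Psme3 at -0.73 and -0.47. Over all genes 41.8% were lower and 40.7% higher at 8 h of BMH-21, and 33.9% and 36.3% at 8 h of CX-5461. The immunoproteasome genes divided, with the catalytic subunit Psmb9 at 1.66 (SE 0.1, adjusted p = 3.2e-13) and 1.32 (SE 0.1, adjusted p = 7.2e-11), and Psmb10 at -0.61 and -0.21.

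The list around NFE2L1 held the genes that release and assist it, and also Nfe2l2, Nfe2l3 and Bptf. Of its 12 tested genes, 5 were higher and 6 lower in the 8 h BMH-21 libraries, beside 40.7% and 41.8% of all genes. After 8 h of CX-5461, 6 were higher and 5 lower, beside 36.3% and 33.9%. Nfe2l1 itself changed by -0.28 (SE 0.05, adjusted p = 9.4e-06 by limma) and -0.14 (SE 0.05, adjusted p = 0.013). After 8 h of CX-5461 the median gene stood at 0.1 relative to control on the deposited scale, so the second change of Nfe2l1 was smaller there. Ddi2, the protease that cuts NFE2L1, changed by -0.49 and -0.46. Mafk, a small MAF partner, changed by 1.95 (SE 0.06, adjusted p = 1.9e-18) and 0.74 (SE 0.06, adjusted p = 5.1e-10), and Syvn1 and Sel1l, of the ubiquitin ligase at the endoplasmic reticulum, by 0.77 and 0.91 after BMH-21 and by 0.78 and 0.48 after CX-5461.

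The element bound by NFE2L1, searched as TGACNNNGC on both strands, is shown upstream of 2 catalytic subunit genes because it is the known route of joint control; Psmb6 was picked for its match. Both stretches are from RefSeq on build GRCm38.p6, 5′ to 3′ on the gene's strand, with the match in capitals, and end at the base before the gene's start, that of GENCODE for Psmb5 and that of RefSeq for the others: Psmb5 (chr14:54618023-54618142, minus strand) and Psmb6 (chr11:70525237-70525356, plus strand). Psmd5 (chr2:34870963-34871082, minus strand) is added as the gene that fell first, with its GC box in capitals.
Psmb5: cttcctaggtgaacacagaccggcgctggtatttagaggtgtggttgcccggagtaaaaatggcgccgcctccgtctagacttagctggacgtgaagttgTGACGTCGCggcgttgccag
Psmb6: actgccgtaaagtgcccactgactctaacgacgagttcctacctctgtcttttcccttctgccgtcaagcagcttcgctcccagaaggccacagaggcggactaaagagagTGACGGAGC
Psmd5: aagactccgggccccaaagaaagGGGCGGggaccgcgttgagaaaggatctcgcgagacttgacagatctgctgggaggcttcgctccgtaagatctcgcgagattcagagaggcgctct

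The RefSeq table held promoters, from 250 bases before to 50 after the start, for 29 of the 36 genes, 31 promoters in all. Psma8, Psmb1, Psmb2, Psmb7, Psmc3, Psmd3 and Psmd7 were not matched. The TGACNNNGC element was in 5 of the 31 (16.1%), those of Psmb5, Psmb6, Psmc6, Psmd9 and Psmd12, against 14.4% of 14009 promoters of tested genes. CCAAT was in 38.7% against 37.7%, the GC box GGGCGG in 58.1% against 60.6%, the ETS element CCGGAAGT in 22.6% against 7.13% and the E2F element TTTCCCGC in 6.45%, Psmc2 and Psmc4, against 1.82%. Of 76 matches, 4 overlapped another motif.

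Changes of members with and without a match were set side by side, with no test. The 5 genes with the TGACNNNGC element had a median change of -0.31 in the 8 h BMH-21 libraries and the 24 without it -0.38. After CX-5461 the medians were -0.29 and -0.3. The 6 genes with an ETS element had medians of -0.5 and -0.41 against -0.32 and -0.29 for the 23 without. These matches are descriptions of letters in a window.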

How the data were processed

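Poly(A) RNA libraries of E14 cells, 21 in 7 groups, were analysed. The authors deposited 1 table of log2 values for 20900 genes. Read back as the log2 of reads plus 0.5 over a library size, the deposited values came out whole with a largest deviation of 1.7e-08 reads. The submitters' processing notes name Trim Galore 0.5.0, TopHat2 2.1.1, R 4.0.5, DESeq2 1.30.1, edgeR 3.32.1, limma 3.46.0 and build mm10, without their roles. All 21 columns were matched to samples by name, with 0 unmapped.

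Genes with a log2 value above 0 in at least 3 libraries were kept. Each library was shifted by the median over those genes of the value minus the gene's mean over 21 libraries, because the deposited library factors differ from those the genes give. Groups were compared with limma 3.58.1 in R 4.3.3 (1 mean per group, trended eBayes, two-sided, Benjamini-Hochberg over 14666 genes, threshold 0.05). The fit was also run on simulated data in which a small part of the genes changed in a single group. That run does not test the shift where most genes change, as at 8 h of BMH-21. With 3 libraries a group, the precision rests on a spread shared by all groups. Genes given in every library are the highest and lowest member of each class at 8 h of BMH-21 and of each comparison with control. Members, lists, markers and motifs were chosen with earlier results of these data known. Exons, neighbours and near-identical copies (at least 95% identity over at least 200 bases, blastn 2.17.0) come from GENCODE M21 on GRCm38, and upstream sequence from RefSeq. By that search 8 members had 16 near-identical copies, 14 of them pseudogenes, so their reads are less certain: Psma3, Psma4, Psma5, Psmb3, Psmb5, Psmc1, Psmd2 and Psmd11. Alternatives were other scalings, filters, offsets, variance models, fits of only the groups compared, a replicate block and leaving out each library.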

Additional observations from a re-analysis of the deposited data

Results flagged for a closer look

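The change from 4 h to 8 h differed between BMH-21 and CX-5461 for 20 of the 36 proteasome subunit genes by limma's interaction contrast. It was always more negative under BMH-21. By the same contrast 26.5% of all genes tested were lower and 31.2% higher. Of the 36 genes, the 3 with the largest difference by limma were Psmd7 (-0.44, SE 0.07, adjusted p = 4.8e-06), Psmd14 (-0.43, SE 0.07, adjusted p = 1.1e-05) and Psma8 (-0.42, SE 0.1, adjusted p = 0.00087). What flagged them is the test of the difference between the inhibitors under the same contrast. In relative log2 values of Psmd7 the CX-5461 libraries at 8 h stood where they were at 4 h, while those of BMH-21 were lower. On the deposited scale Psmd7 rose from 4 h to 8 h of CX-5461, as the median gene did (-0.26 to 0.1 relative to control).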

How the results depend on the processing

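The counts and medians of the 36 genes depend most on the scale. With log2 values as deposited BMH-21 gave 0, 12 and 34 called genes (2, 4 and 8 h) and CX-5461 gave 1, 32 and 15, 1 and 34 between inhibitors at 4 h and 8 h, 8 from 4 h to 8 h of CX-5461, all higher and so turned, and 35 for the difference of the changes. Of all genes as deposited, 44.9% and 56.9% were lower at 4 h and 8 h of BMH-21, and 14.3% at 8 h of CX-5461. Between inhibitors 9.35% were higher at 4 h and 67.2% lower at 8 h. From 4 h to 8 h of CX-5461 58.8% were higher. The deposited medians were -0.06, -0.16 and -0.75 for BMH-21, -0.18, -0.38 and -0.19 for CX-5461, 0.11 and -0.54 between inhibitors at 2 h and 8 h, -0.59 and 0.17 from 4 h to 8 h, and -0.75 for the difference. With each library centred on its own median the counts were 1 at 2 h and 14 at 4 h of BMH-21 and 31 between inhibitors at 4 h, and the medians -0.53 (8 h BMH-21), -0.22 and -0.41 (4 h and 8 h CX-5461), -0.53 (4 h to 8 h of BMH-21) and -0.32 (difference). Over all genes that scaling gave 18.6% higher and 17.5% lower at 2 h of BMH-21, and 32.2% and 41.5% at 4 h. Between inhibitors at 4 h the shares were 27.4% and 18.5%. With quantile normalization the counts were 1 (2 h BMH-21), 11 and 19 (4 h and 8 h CX-5461), 5 (between inhibitors, 4 h) and 12 (4 h to 8 h of CX-5461), and the medians -0.18, -0.03, -0.1, -0.27 and -0.07 for 8 h BMH-21, 4 h and 8 h CX-5461 and the 4 h to 8 h changes. The shares of all genes higher and lower were then 14.9% and 16.7% at 2 h of BMH-21. They were 27.8% and 44.6% at 4 h and 27.6% and 40.4% at 8 h of CX-5461. Between inhibitors at 4 h they were 20.4% and 21.4%, and from 4 h to 8 h of CX-5461 28.5% and 28.4%. Centred on genes with a mean log2 value above 5, 11 were called between inhibitors at 4 h and 13 for the difference, with medians of -0.18, -0.03, -0.14 and -0.27 for 8 h BMH-21, 4 h and 8 h CX-5461 and 4 h to 8 h of BMH-21. Of all genes 13.7% were then higher and 28.2% lower between inhibitors at 4 h, and 36.3% and 21.4% for the difference. Without a filter the counts were 1 (2 h BMH-21, lower and so turned), 12 (4 h BMH-21) and 11 (between inhibitors, 4 h), and the 8 h BMH-21 median was -0.44. At 2 h of CX-5461 a log2 filter of 2, or only the groups compared, gave 2. The E2F element was in 1 promoter when the downstream bases were left out. The cause of these shifts was not tested beyond the shift of the library scale itself.

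Single genes turned as follows. As deposited, Psmd13 was at -0.01 and Psmd2 at -0.07 after 4 h of BMH-21, Psmc1 at -0.22 and Psmd10 at -0.18 after 8 h, Psmc1 at -0.04, Psmd13 at -0.23 and Psmd2 at -0.18 after 4 h of CX-5461, and between inhibitors at 8 h Psmb11 was at -0.09, Psmc1 at -0.35, Psmd10 at -0.16, Psmd13 at -0.46 and Psmd2 at -0.44. On the own-median scale Psmc1 was at -0.01 (8 h BMH-21) and Psmd2 at -0.02 (4 h CX-5461). Under quantile normalization Psmb11 was at -0.16, Psmd13 at 0.08 and Psmd2 at 0.25 for 8 h BMH-21, Psmd3 at 0.04 for 4 h CX-5461, and Psma7 at 0.1, Psmd13 at 0.09 and Psmd2 at 0.21 for 8 h CX-5461. Centred on abundant genes Psmd13 was at 0.07 and Psmd2 at 0.11 for 8 h BMH-21, and Psma7 and Psmd13 at 0.01 and Psmd2 at 0.03 for 8 h CX-5461.

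Leaving out each library in turn, the count ranged from 1 to 2 at 2 h of BMH-21, 12 to 14 at 4 h (12 without the third 4 h BMH-21 replicate), 1 to 2 at 2 h of CX-5461 and 9 to 17 between inhibitors at 4 h. The 8 h BMH-21 median ranged from -0.43 to -0.33 and that between inhibitors at 8 h from -0.12 to -0.01. Replicate numbers did not pair the libraries: same-numbered libraries correlated between -0.25 and 0.09. With the number as a replicate block, 14 were called at 4 h and 30 at 8 h of BMH-21, 20 and 30 for CX-5461, and 19 for the difference.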

Other observations

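Of the 36 genes, 6 have a protein-coding neighbour on the other strand whose start lies within 1000 bases of their own, which gives a pair of genes around a shared upstream stretch. In 4 of the pairs both genes were lower at 8 h under both inhibitors. Of all single genes 41.8% were lower at 8 h of BMH-21 and 33.9% at 8 h of CX-5461, and other neighbouring pairs were not compared. The 4 pairs are Psmc5 and Ftsj3 (-0.81 and -0.76 after BMH-21, -0.53 and -0.47 after CX-5461), Psmc2 and Dnajc2 (-0.51 and -0.79, then -0.38 and -0.4), Psmb1 and Tbp (-0.18 and -0.23, then -0.23 and -0.26), and Psma2 and Mrpl32 (-0.41 and -0.4, then -0.39 and -0.19). After 4 h of BMH-21 Mrpl32 was already at -0.42 when Psma2 was at 0.03. In the other 2 pairs the neighbour was higher after BMH-21: Ss18l1, beside Psma7, was at 0.51 in 8 h BMH-21 cells (adjusted p = 4e-07 by limma) but at -0.15 after 8 h of CX-5461 (adjusted p = 0.062 by limma, not called), and Atg4a, beside Psmd10, was at 2.07 (adjusted p = 1.9e-16) and at 0.77 after 8 h of CX-5461 (adjusted p = 4e-08).

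The depth of the change had no close relation to the level or size of the gene. Across the 36 genes the change after 8 h of BMH-21 had a Pearson r of -0.32 and a Spearman rho of -0.12 with the control level per kilobase, and of -0.15 and -0.15 with the log2 length of the gene, as a description over genes of the same libraries.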
